A study of Mus musculus with 6 samples.

Results

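Potassium channels, calcium channels, transient receptor potential (TRP) channels, the calcium pumps and the calcium store proteins were described here in mouse whole lung. Members were all probe sets whose gene symbol in the platform annotation begins with Kcn or Cacn, or with Ryr, Itpr, Stim, Orai, Trpa, Trpc, Trpm, Trpv, Atp2a, Atp2b or Casq followed by a number. These were 305 of 45037 probe sets and 147 of 18193 genes on the arrays. The symbol rule also took 4 genes that make no channel or pump, among them Trpc4ap, which encodes an adaptor protein, and Kcnq1ot1, a long noncoding RNA.

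All lungs came from adult BALB/c mice that had received 2 to 3 µg of interleukin-13 (IL-13) into the trachea once a day for 7 days, and were collected 24 hours after the last dose. The first genotype, IL4R KO + SMP8-IL4R, lacked the IL-4 receptor (IL4R -/-) and carried a transgene (SMP8-IL4R +/-) that expresses the receptor from a smooth muscle promoter. The second, IL4R KO, had the same IL4R -/- deletion and no transgene, and the third, WT, had the intact receptor and no transgene. Each genotype had 2 arrays, and each array carried RNA pooled from 4 mice. No untreated lung was among the samples, so every comparison is between genotypes under IL-13.

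Ion channels set the membrane voltage and the calcium concentration inside cells. In airway and vascular smooth muscle, L-type calcium channels, TRP channels and store-operated ORAI channels admit calcium, and ryanodine and IP3 receptors release it from the sarcoplasmic reticulum. Pumps of the Atp2a and Atp2b families then return it to the store or expel it, STIM proteins sense the store's content, and calsequestrins buffer calcium inside it. Potassium channels oppose calcium entry by making the membrane voltage more negative, and in epithelium they also sustain the driving force for chloride secretion. IL-13, which signals through the IL-4 receptor, is known for driving mucus production and airway hyperresponsiveness in the lung.

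Values are log2 expression after robust multi-array average (RMA) normalization, and each gene was read by its brightest probe set. Levels of different genes are not compared, because probe sets differ in how strongly they bind. Testing was limited to genes brighter than the overall median, 7.10, in 2 or more arrays. This held for 62 of the 147 member genes, of which 53 were above the median in all 6 arrays. Kcnip2 passed only through the IL4R KO arrays and Trpc6 only through the IL4R KO + SMP8-IL4R arrays, so both had to differ somewhat between groups. The other 85 members were dim, and 24 of them averaged below the lower quartile of all values, 5.30. Differences were tested with limma, with Benjamini-Hochberg adjustment over the 11861 tested genes, and passed at an adjusted p under 0.05. Each p-value sets a difference against a spread per gene, drawn from the pools within all genotypes and moderated over all tested genes. That spread reflects only how far apart pools of the same genotype lay.

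Array medians lay between 7.08 and 7.11. The summed level of 4 alveolar epithelial markers was 16.2 to 16.3 on the log2 scale in all 6 arrays. The targeted gene, Il4ra, had log2 values of 9.98 and 9.84 in IL4R KO + SMP8-IL4R, 9.35 and 9.55 in IL4R KO, and 9.64 and 9.81 in WT, so its probe set did not read the deletion as an absence, and where it lies relative to the deleted part was not analysed here. Clca1, a gene known to be induced by IL-13, was at 3.91 and 4.80 in IL4R KO + SMP8-IL4R and 4.57 and 5.27 in IL4R KO, against 14.32 and 14.29 in WT. Liver transcripts stood high in IL4R KO pool 1 and WT pool 2, whose summed level of 6 liver markers was 13.2 and 12.7, against 8.76 to 9.03 in the other 4 arrays. The 2 IL4R KO pools also differed in sex-linked genes: the summed log2 level of 3 Y-linked genes was 10.04 in pool 1 and 5.37 in pool 2, and Xist was at 7.93 and 11.40, while the other 4 arrays held both signals (9.27 to 9.88 and 10.08 to 11.02). The summed level of 3 B cell markers was 10.68 in IL4R KO pool 1 and 11.72 in pool 2. Over the tested members, the pool 1 minus pool 2 difference had an SD of 0.111 for IL4R KO + SMP8-IL4R, 0.212 for IL4R KO and 0.110 for WT.

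The inward rectifier Kcnj15 and the plasma membrane calcium pump Atp2b2 were lower in the lungs of both receptor-deleted genotypes than in WT, by 1.76-fold to 2.41-fold. In IL4R KO lungs, the calcium store genes Casq2 and Ryr2 and the store sensor Stim1 were also higher than in WT, and the potassium channel Kcnk6 was lower. The channel subunit Kcnip2 passed as well, but it entered the test only through the IL4R KO arrays where it is high. No member passed between IL4R KO + SMP8-IL4R and IL4R KO. In whole lung, fewer cells of a type and less RNA per cell cannot be told apart.

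In IL4R KO against WT, 7 of the 62 tested members passed (11.3%), compared with 4.7% of all tested genes. Of these, 4 were higher (background 1.92%) and 3 were lower (background 2.77%). The median difference was 0.08 over the members and 0.02 over all tested genes, with 37 members above 0 and 25 below. Without IL4R KO replicate 2 the count was 14, adding Atp2a2, Cacna1c, Kcne2, Kcne4, Kcnmb1, Kcnmb2 and Trpm2, and without WT replicate 1 or WT replicate 2 it was 1 (Kcnj15) and 2 (Kcnj15 and Atp2b2). It was 4 without either IL4R KO + SMP8-IL4R replicate. Over all tested genes, the number passing rose or fell with the same arrays left out. Without IL4R KO replicate 2, IL4R KO was pool 1 alone, which held liver transcripts. Among the 53 members above the overall median in all 6 arrays, 5 passed, without Kcnip2 and Ryr2. Under that filter 503 of 11131 genes passed. Against WT, 2 of 62 members passed in IL4R KO + SMP8-IL4R (3.23%), close to the 2.84% of all tested genes. Both were lower (background 2.15%). The median difference was 0.02 over the members and 0.03 over all genes. The count was 1 without WT replicate 1 or either IL4R KO + SMP8-IL4R replicate, and 9 without either IL4R KO replicate. Here too, the number passing over all tested genes fell or rose with the same arrays left out. The comparisons of both genotypes with WT share the WT arrays.

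Of the 62 members, 0 passed in limma between IL4R KO + SMP8-IL4R and IL4R KO, where 0.101% of all tested genes did. At an unadjusted p under 0.05, 11 members differed (17.7%) against 12.4% of all tested genes, and with a robust intensity trend in limma 0 members passed. The median difference was -0.07 over the members and -0.01 over all genes, with 24 members above 0 and 38 below. Without IL4R KO replicate 2, 3 members passed, namely Kcnmb1, Kcnq5 and Trpc2, each higher in IL4R KO + SMP8-IL4R. That pool is the one low in Y-linked genes and high in B cell markers. Without it, IL4R KO was pool 1 alone, which held liver transcripts and was low in Xist. The number passing over all tested genes also rose without it. The part of these traits of the pools in the count was not tested. The groups did not overlap for 32 members, or 51.6%, against 41.7% of all genes in this comparison. Against WT, the IL4R KO + SMP8-IL4R arrays did not overlap for 43 members, or 69.4%, against 61.7% of all genes. In IL4R KO against WT the count was 40 members, or 64.5%, against 51.6% of all genes.

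**Figure D1:**
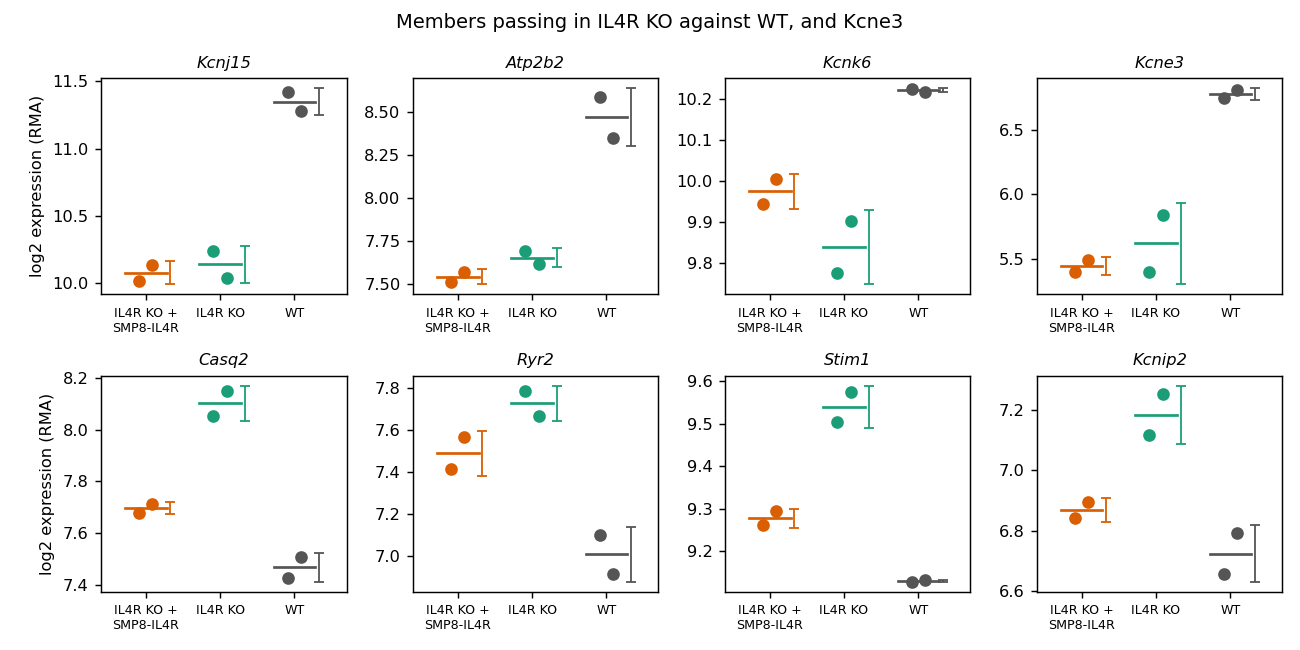
Log2 expression (y axis) of the member genes that passed in any comparison, and of Kcne3, in each array, with IL4R KO + SMP8-IL4R (Tg) on the left, then IL4R KO (KO) and WT. Points are pools of 4 mice, the horizontal line is the mean of 2 pools and the bar is the SD. Kcnj15, Atp2b2 and Kcne3 sit low in both receptor-deleted groups, and Casq2, Ryr2, Stim1 and Kcnip2 sit highest in IL4R KO.

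The 250 bases before the annotated start are shown for 4 genes around which the results turn, to give the letters near their promoters. They are the members with the lowest differences from WT in the receptor-deleted lungs (Kcnj15, Atp2b2 and Kcne3) and the calcium store gene highest relative to its spread in IL4R KO lungs (Casq2). The sequences are those of RefSeq on build GRCm38.p6, 5′ to 3′ on the gene's strand. The Kcnj15 window is chr16:95257308-95257557 on the plus strand, and the Kcne3 window, the upstream one of 2 starts, is chr7:100176420-100176669 on the plus strand. The Atp2b2 window, the middle one of 3 starts, is chr6:113934682-113934931 on the minus strand, and the Casq2 window is chr3:102086165-102086414 on the plus strand. Capitals mark TTC and GAA separated by 4 bases, the palindrome that STAT6, the factor activated by the IL-4 receptor, is known to bind.
Kcnj15: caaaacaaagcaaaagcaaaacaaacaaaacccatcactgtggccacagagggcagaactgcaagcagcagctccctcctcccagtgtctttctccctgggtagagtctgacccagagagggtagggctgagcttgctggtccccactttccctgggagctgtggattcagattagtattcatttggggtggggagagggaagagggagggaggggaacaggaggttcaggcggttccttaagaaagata
Atp2b2: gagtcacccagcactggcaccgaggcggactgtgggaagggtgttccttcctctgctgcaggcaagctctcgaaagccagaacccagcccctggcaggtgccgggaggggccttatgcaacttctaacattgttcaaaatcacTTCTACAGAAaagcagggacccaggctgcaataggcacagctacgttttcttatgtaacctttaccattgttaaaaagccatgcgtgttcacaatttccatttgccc
Kcne3: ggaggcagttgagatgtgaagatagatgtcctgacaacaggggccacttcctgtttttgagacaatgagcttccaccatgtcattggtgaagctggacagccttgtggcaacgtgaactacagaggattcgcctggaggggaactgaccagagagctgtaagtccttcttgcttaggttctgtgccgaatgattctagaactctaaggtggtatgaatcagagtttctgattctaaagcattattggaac
Casq2: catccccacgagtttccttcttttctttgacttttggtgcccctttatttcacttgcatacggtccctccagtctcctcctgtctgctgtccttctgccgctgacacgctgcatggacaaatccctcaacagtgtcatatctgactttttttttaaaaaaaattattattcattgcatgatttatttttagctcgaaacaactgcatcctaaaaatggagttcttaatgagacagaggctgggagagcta
The match in Atp2b2, TTCTACAGAA, begins 107 bases before that start, and the other 3 windows printed held none. The Atp2b2 windows at the first and last of its 3 starts, not printed, held none either. The match thus belongs to the middle start alone. Both strands were searched, and each palindrome reads the same on either strand. Of 32851 windows in the table, 5.85% held this palindrome, and so did 10 of 156 windows of the 116 member genes that had one (6.41%) and 7 of 74 windows of tested members (9.46%). TTC and GAA separated by 3 bases was in 7.02% of all windows and 7.05% of member windows, and the MEF2 motif in a strict form (CTA and TAG around 4 A or T bases) and the CArG motif of muscle genes were in 0.508% and 1.47% of all windows and in 0.641% and 1.28% of member windows. None of the 4 windows printed held any of these 3 forms. A looser MEF2 form, with C or T as the outer base on the left and A or G on the right, was searched later and was in 2.92% of all windows and 1.92% of member windows. Of the 4 windows printed, the Casq2 window holds it, beginning 69 bases before the start. These are letter matches in short windows and say nothing of binding.

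Among potassium channel pores, the inward rectifiers pass potassium more readily into than out of cells and hold the resting voltage. Kcnj15 had log2 values of 10.02 and 10.14 in IL4R KO + SMP8-IL4R, 10.24 and 10.04 in IL4R KO, and 11.42 and 11.28 in WT. Both receptor-deleted groups lay below both WT arrays and overlapped each other. The level in IL4R KO was 2.31-fold lower than in WT (log2 difference -1.21, SE 0.10, limma adjusted p = 0.00284). The level in IL4R KO + SMP8-IL4R was 2.41-fold lower than in WT (-1.27, SE 0.10, limma adjusted p = 0.00285). Between IL4R KO + SMP8-IL4R and IL4R KO the difference was -0.06 (limma adjusted p = 0.811). The other 2 Kcnj15 probe sets gave -1.28 and -1.11 in IL4R KO against WT, so all 3 read the gene lower. Of the other 3 tested inward rectifiers, none passed. Kcnj8, the pore of the vascular ATP-sensitive potassium channel, was at 7.92 in both IL4R KO + SMP8-IL4R pools, at 7.95 and 8.11 in IL4R KO, and at 7.52 and 7.74 in WT. Both receptor-deleted groups lay above WT, and the difference of IL4R KO from WT was 0.40 (limma adjusted p = 0.0871).

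The 2-pore domain channels carry the background potassium leak. Kcnk6, one of 6 tested, had log2 values of 9.95 and 10.01 in IL4R KO + SMP8-IL4R, 9.78 and 9.90 in IL4R KO, and 10.23 and 10.22 in WT. The receptor-deleted arrays were all below WT. The difference of IL4R KO from WT was -0.38 (SE 0.07, 1.30-fold lower, limma adjusted p = 0.0410), and it passed in 6 of 17 alternative settings of the fit. It did not pass without either WT replicate or either IL4R KO + SMP8-IL4R replicate, with adjusted p-values up to 0.287. Nor did it pass without a filter, with each array centred on its median, with a replicate block or without both liver-bearing arrays (difference -0.32). The difference of IL4R KO + SMP8-IL4R from WT was -0.25 (limma adjusted p = 0.151). Kcnk2, a stretch-sensitive channel, had the lowest difference of the family between IL4R KO + SMP8-IL4R and IL4R KO. It read 9.42 and 9.18 in IL4R KO + SMP8-IL4R, and 9.42 and 9.82 in IL4R KO, with 9.49 and 9.50 in WT. The IL4R KO pools were far apart, and the difference of -0.32 did not pass (limma adjusted p = 0.449). The remaining 4 (Kcnk1, Kcnk3, Kcnk5 and Kcnk13) passed in no comparison.

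Of 31 voltage-gated potassium channel genes, 9 were tested and none passed. Kcnq5, of the family that carries the slow M-type current, had the highest difference of all tested members between IL4R KO + SMP8-IL4R and IL4R KO. It was at 8.62 and 8.47 in IL4R KO + SMP8-IL4R, 7.73 and 7.97 in IL4R KO, and 7.90 and 8.03 in WT. The IL4R KO + SMP8-IL4R pools lay above the other 4 arrays, which overlapped. The difference was 0.70 against IL4R KO (SE 0.11, 1.62-fold, limma adjusted p = 0.167) and 0.58 against WT (limma adjusted p = 0.0542). The other Kcnq5 probe sets gave -0.21 and -0.12 in the first of these, opposite in sign, so the value belongs to 1 probe set. Without IL4R KO replicate 2 the difference from IL4R KO was 0.82 (limma adjusted p = 0.0360), and without either IL4R KO replicate that from WT passed (limma adjusted p = 0.0194). Kcnq1, which forms an epithelial channel with Kcne3, spanned only 9.21 to 9.43 over the 6 arrays. Kcnh2 and Kcnh1, of the ether-a-go-go family, differed by at most 0.17 in any comparison.

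Calcium-activated potassium channels open when calcium rises. Kcnma1, the pore of the large-conductance channel that relaxes smooth muscle, was at 7.84 and 7.93 in IL4R KO + SMP8-IL4R, 7.96 and 7.89 in IL4R KO, and 7.91 and 7.95 in WT. The 3 groups overlapped, and no difference exceeded 0.05 in size. Kcnn4, an intermediate-conductance channel of epithelium and immune cells, differed by at most 0.15 and passed in none of the 3 comparisons.

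Of 15 genes for accessory subunits of potassium channels, 8 were tested and 1 passed. Kcnip2 modulates the fast transient outward current of the heart. Its log2 values were 6.84 and 6.90 in IL4R KO + SMP8-IL4R, 7.12 and 7.25 in IL4R KO, and 6.66 and 6.79 in WT. The IL4R KO pools were above all other arrays and were the only ones above the median of all values. IL4R KO was above WT by 0.46 (SE 0.08, 1.38-fold, limma adjusted p = 0.0361). It passed in 7 of 14 alternative settings, not without either WT replicate or either IL4R KO + SMP8-IL4R replicate, with adjusted p-values up to 0.275. The other Kcnip2 probe sets gave -0.15 and 0.37. Kcne2, which modulates several voltage-gated channels, was at 8.33 and 8.50 in IL4R KO + SMP8-IL4R, 8.65 and 8.40 in IL4R KO, and 7.92 and 8.06 in WT. WT was below all receptor-deleted arrays, and the difference of IL4R KO from WT was 0.54 (limma adjusted p = 0.0607).

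Kcnmb1 and Kcnmb2 belong to the large-conductance calcium-activated channel and lay apart in different groups. Kcnmb1, the subunit that raises the channel's calcium sensitivity in smooth muscle, was at 7.09 and 7.22 in IL4R KO + SMP8-IL4R, 6.56 and 6.94 in IL4R KO, and 7.10 and 7.11 in WT. IL4R KO was below the other 4 arrays, with its 2 pools further apart than those of the other groups. It differed by 0.40 between IL4R KO + SMP8-IL4R and IL4R KO (limma adjusted p = 0.324), and by -0.36 between IL4R KO and WT (limma adjusted p = 0.183). Without IL4R KO replicate 2 the first of these was 0.59 (limma adjusted p = 0.0416). Kcnmb2, an inactivating subunit, was at 8.55 and 8.37 in IL4R KO + SMP8-IL4R, 8.50 and 8.77 in IL4R KO, and 9.01 and 9.05 in WT. All receptor-deleted arrays were below WT, by 0.57 in IL4R KO + SMP8-IL4R (limma adjusted p = 0.0610) and 0.40 in IL4R KO (limma adjusted p = 0.110).

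**Figure D2:**
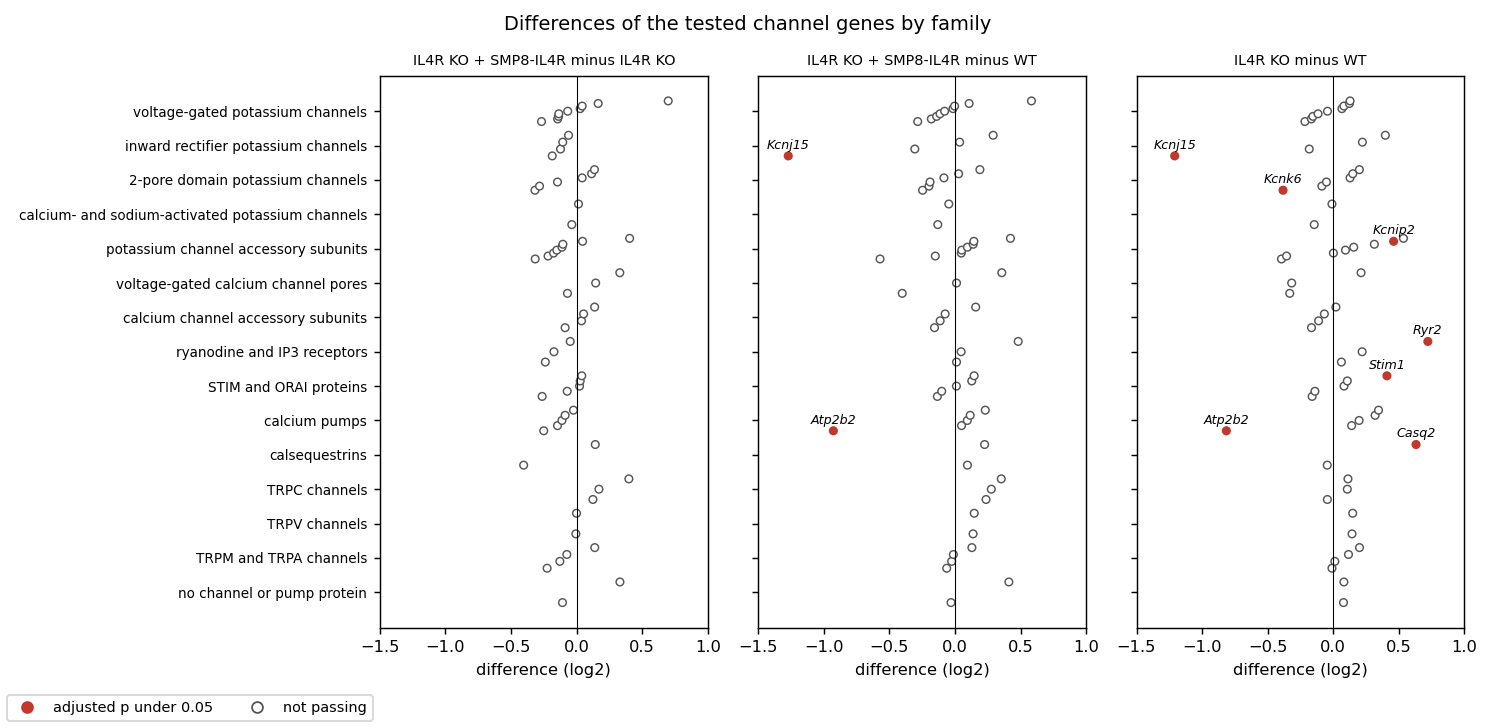
Log2 differences (x axis) of the 62 tested member genes by family (y axis) in the 3 comparisons, 1 point per gene, filled where the limma adjusted p was under 0.05. In the left panel no point is filled, and in both panels against WT Kcnj15 and Atp2b2 lie furthest to the left.

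Voltage-gated calcium channels admit calcium on depolarization. Of 9 pore genes, 3 were tested and none passed. Cacna1c, the L-type pore of smooth and cardiac muscle, was at 8.27 and 8.23 in IL4R KO + SMP8-IL4R, 7.81 and 8.03 in IL4R KO, and 8.30 and 8.18 in WT. The IL4R KO + SMP8-IL4R and WT arrays overlapped and all lay above IL4R KO. The difference of IL4R KO + SMP8-IL4R from IL4R KO was 0.33 (limma adjusted p = 0.282), and that of IL4R KO from WT was -0.32 (limma adjusted p = 0.121). The second Cacna1c probe set gave 0.25 and -0.15 in these comparisons. Cacna1d, another L-type pore, differed by 0.36 between IL4R KO + SMP8-IL4R and WT (limma adjusted p = 0.0960), with a probe set that can bind related transcripts. The 4 tested accessory subunits, Cacna2d1, Cacnb2, Cacng2 and Cacng7, differed by at most 0.17.

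Smooth muscle markers are set beside Kcnmb1 and Cacna1c, neither of which passed in any of the 3 comparisons. Of 10 markers, 4 were higher and 0 lower in IL4R KO + SMP8-IL4R than in IL4R KO, with a median difference of 0.58. In IL4R KO against WT, 6 of 10 were lower and 0 higher, with a median of -0.45. Their summed log2 level was 14.84 to 14.88 in IL4R KO + SMP8-IL4R, 14.19 to 14.25 in IL4R KO, and 14.66 to 14.68 in WT. Their part in the channel values was not tested.

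**Figure D3:**
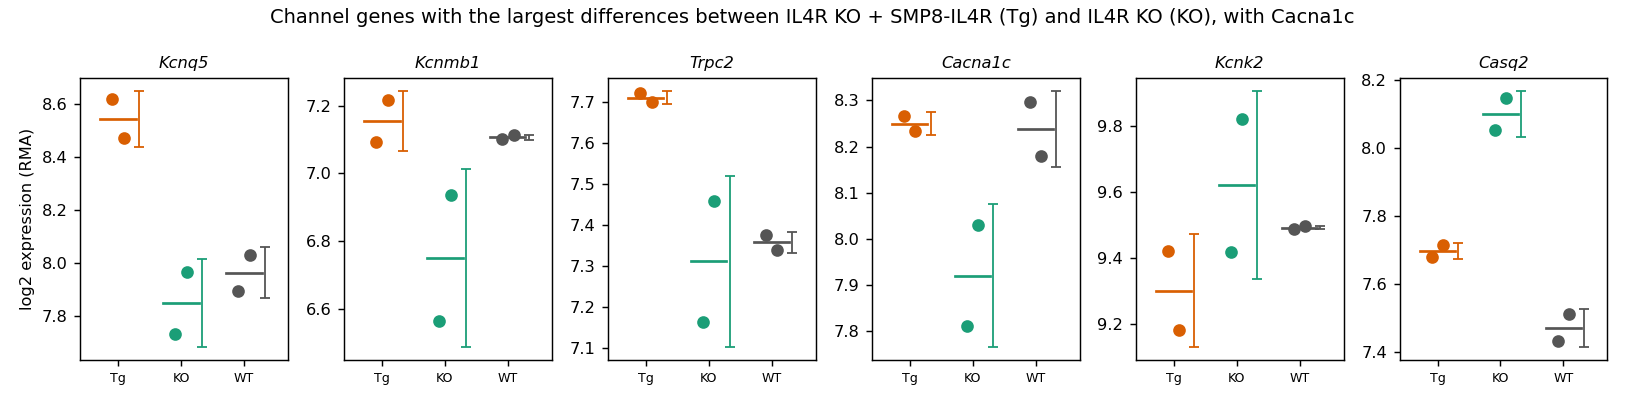
Log2 expression (y axis, a separate scale per panel) of Kcnq5, Kcnmb1, Trpc2, Cacna1c, Kcnk2 and Casq2 in IL4R KO + SMP8-IL4R (Tg), IL4R KO (KO) and WT. Points are pools, lines are means of 2 pools and bars are SDs. The 2 IL4R KO pools lie further apart than the other pairs for all 6 genes, and none of the 6 genes passed between IL4R KO + SMP8-IL4R and IL4R KO.

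Release of calcium from the store runs through ryanodine and IP3 receptors. Ryr2, the main ryanodine receptor of heart muscle, had log2 values of 7.41 and 7.57 in IL4R KO + SMP8-IL4R, 7.79 and 7.67 in IL4R KO, and 7.10 and 6.91 in WT. The 3 groups did not overlap, with IL4R KO + SMP8-IL4R in between. The difference of IL4R KO from WT was 0.72 (SE 0.10, 1.65-fold, limma adjusted p = 0.0167) and passed in 12 of 15 alternative settings, not without WT replicate 1, WT replicate 2 or both liver-bearing arrays, with adjusted p-values up to 0.130. It was 0.48 for IL4R KO + SMP8-IL4R against WT (limma adjusted p = 0.0690) and -0.24 for IL4R KO + SMP8-IL4R against IL4R KO (limma adjusted p = 0.400). The second, dimmer Ryr2 probe set gave 0.28 in IL4R KO against WT. The IP3 receptors Itpr2 and Itpr3, which open on hormone and transmitter signals, were above WT by 0.22 and 0.06 in IL4R KO and passed nowhere.

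Casq2, the calsequestrin of cardiac and smooth muscle, was at 7.68 and 7.71 in IL4R KO + SMP8-IL4R, 8.05 and 8.15 in IL4R KO, and 7.43 and 7.51 in WT. The groups did not overlap, and IL4R KO was highest. The difference of IL4R KO from WT was 0.63 (SE 0.07, 1.55-fold, limma adjusted p = 0.00805), and it was 0.58 to 0.72 over 17 alternative settings. It passed in 15 of them, not without WT replicate 1 or WT replicate 2, with adjusted p-values up to 0.109. Between IL4R KO + SMP8-IL4R and IL4R KO the difference was -0.40 (SE 0.07, limma adjusted p = 0.197), the lowest of the tested members in that comparison. The Casq2 probe set can bind related transcripts. Casq1, the skeletal muscle calsequestrin, differed by at most 0.14 in size.

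Cardiac, adipose and skeletal muscle markers moved in the same comparison as Casq2, Ryr2, Kcnip2 and Stim1. Of 10 cardiac markers, 7 were higher in IL4R KO than in WT and 0 lower, with a median difference of 0.80. Set against WT, IL4R KO + SMP8-IL4R had 2 of the 10 higher (Myh7 and Myl7) and 1 lower (Nppa, -1.55, limma adjusted p = 0.0354). None of the 10 passed between IL4R KO + SMP8-IL4R and IL4R KO, where the median was -0.44. Their summed log2 level was 14.24 to 14.35 in IL4R KO + SMP8-IL4R, 14.55 to 14.78 in IL4R KO, and 13.94 to 14.01 in WT. That sum stood in the order of Casq2, while Nppa and Mybpc3 had their lowest means in IL4R KO + SMP8-IL4R and Actc1 its highest there. All 3 tested adipose markers (Adipoq, Cidec and Ucp1) were higher in IL4R KO than in WT, with a median of 1.70, and 2 of them were lower in IL4R KO + SMP8-IL4R than in IL4R KO. The summed log2 level of the 4 adipose markers on the arrays was 9.52 to 9.60 in IL4R KO + SMP8-IL4R, 10.68 to 10.86 in IL4R KO, and 8.91 to 9.14 in WT. Of 3 tested skeletal muscle markers, 2 were higher in IL4R KO than in WT (Myl1 by 0.94 and Ckm by 0.88), and the summed level of the 8 on the arrays was 10.41 to 10.42 in IL4R KO + SMP8-IL4R, 10.61 to 10.84 in IL4R KO, and 10.02 to 10.09 in WT. The part of these markers in the results was not tested.

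**Figure D4:**
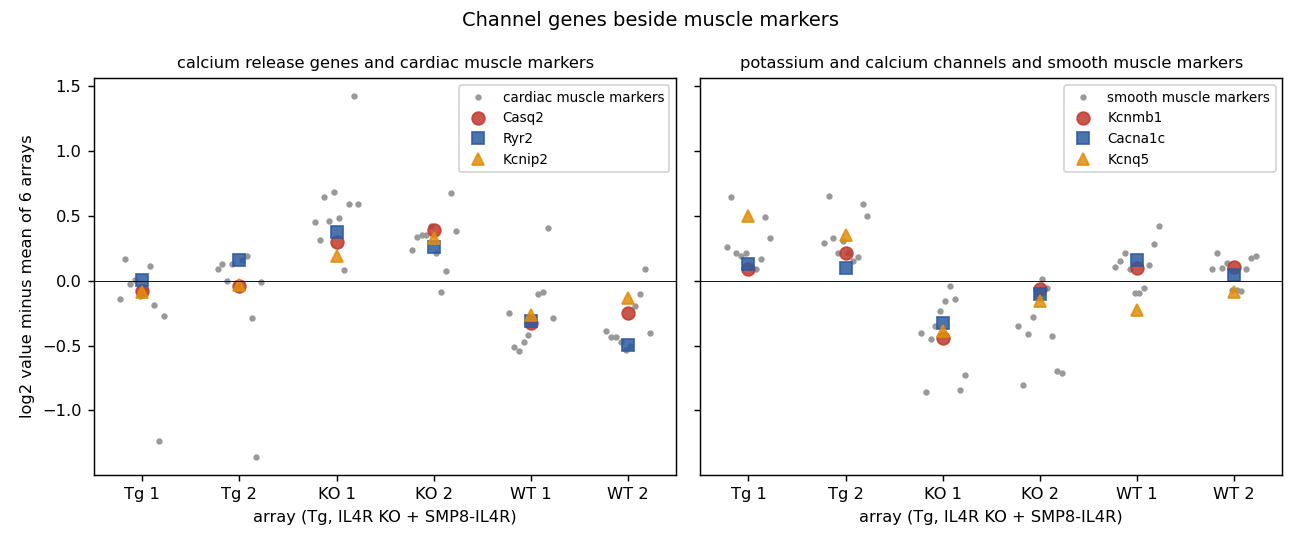
Log2 value minus the gene's mean over 6 arrays (y axis) in each array (x axis). The left panel sets Casq2, Ryr2 and Kcnip2 beside 10 cardiac muscle markers (grey), and the right panel sets Kcnmb1, Cacna1c and Kcnq5 beside 10 smooth muscle markers (grey). The coloured points on the left are highest in the IL4R KO arrays, and on the right lowest in those arrays for Kcnmb1 and Cacna1c.

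Store-operated entry couples STIM sensors in the store membrane to ORAI pores in the plasma membrane. Stim1 was at 9.26 and 9.29 in IL4R KO + SMP8-IL4R, 9.50 and 9.57 in IL4R KO, and 9.13 in both WT pools. The 3 groups did not overlap. Stim1 was higher in IL4R KO than in WT by 0.41 (SE 0.06, 1.33-fold, limma adjusted p = 0.0214). It passed in 9 of 17 alternative settings, not without either WT replicate or either IL4R KO + SMP8-IL4R replicate, with adjusted p-values up to 0.204. Nor did it pass without both liver-bearing arrays (difference 0.445), with all probe sets tested separately, or with both Stim1 probe sets averaged. The second Stim1 probe set gave 0.04 and can bind related transcripts. T cells depend on STIM1 and ORAI1 for calcium entry, and 0 of 4 tested T cell markers passed in any comparison. The summed log2 level of the 5 markers on the arrays was 10.40 to 10.48 in IL4R KO + SMP8-IL4R, 10.47 to 10.90 in IL4R KO, and 10.19 to 10.33 in WT. Stim1 also shared its order of groups with the summed cardiac and adipose markers given above. The part of all these markers in the Stim1 result was not tested. Stim2, Orai1, Orai2 and Orai3 differed by at most 0.16.

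Calcium pumps move calcium out of the cytoplasm. Atp2b2, a plasma membrane pump, had log2 values of 7.51 and 7.57 in IL4R KO + SMP8-IL4R, 7.69 and 7.62 in IL4R KO, and 8.59 and 8.35 in WT. Every receptor-deleted array lay below WT. It was 1.76-fold lower in IL4R KO than in WT (-0.82, SE 0.09, limma adjusted p = 0.0105) and 1.90-fold lower in IL4R KO + SMP8-IL4R (-0.93, SE 0.09, limma adjusted p = 0.00752). The other 2 probe sets gave -0.35 and -0.99 in IL4R KO against WT. Without WT replicate 1 neither call was kept, with limma adjusted p-values of 0.0670 in IL4R KO and 0.0563 in IL4R KO + SMP8-IL4R. The call in IL4R KO + SMP8-IL4R was also lost without either of its own replicates (0.0745 and 0.0613).

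Macrophage and airway epithelial markers were set beside Kcnj15 and Atp2b2. Of 5 tested macrophage markers, 3 were lower in IL4R KO than in WT and 3 in IL4R KO + SMP8-IL4R than in WT. The summed log2 level of the 6 on the arrays was 12.75 to 13.16 in IL4R KO + SMP8-IL4R, 12.81 in both IL4R KO pools, and 14.65 to 14.70 in WT. Most of that sum in WT is Chil3 (14.23 and 14.26), and the untested Marco went the other way, above WT by 1.02 in IL4R KO + SMP8-IL4R and by 0.50 in IL4R KO. The sum without Chil3 was not read, so the macrophage sum gives no measure of macrophage content. Of 6 airway and goblet cell markers, 2 were lower and 1 higher in each receptor-deleted group than in WT, with summed levels of 15.35 to 15.45 in IL4R KO + SMP8-IL4R, 15.44 in both IL4R KO pools, and 15.89 to 15.94 in WT. That sum includes Clca1, which was high in WT alone, as given above. The sum without Clca1 was not read, so it gives no measure of airway epithelial content. The part of these macrophage and airway markers in the results was not tested.

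Atp2a2, the sarcoplasmic reticulum pump of heart and smooth muscle, gave opposite directions on its 6 probe sets. The brightest was at 12.44 and 12.54 in IL4R KO + SMP8-IL4R, 12.82 and 12.67 in IL4R KO, and 12.45 and 12.34 in WT, which puts IL4R KO above WT by 0.35 (limma adjusted p = 0.0832). One further probe set gave 0.44 in that comparison. The remaining 4 gave -0.24, -0.40, -0.53 and -0.59, and of these the one at -0.53 passed when all probe sets were tested separately (limma adjusted p = 0.0296). That probe set was at 9.83 and 9.81 in IL4R KO + SMP8-IL4R, 9.71 and 9.60 in IL4R KO, and 10.15 and 10.22 in WT, with no overlap between groups. Where each probe set lies on the transcripts was not analysed here. Of 24 members with at least 2 bright probe sets, all probe sets had the same sign in 17 for IL4R KO against WT, in 20 for IL4R KO + SMP8-IL4R against WT, and in 15 for IL4R KO + SMP8-IL4R against IL4R KO. All 5 tested pump genes lay below 0 in this last comparison, between -0.25 and -0.02, and none passed.

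**Figure D5:**
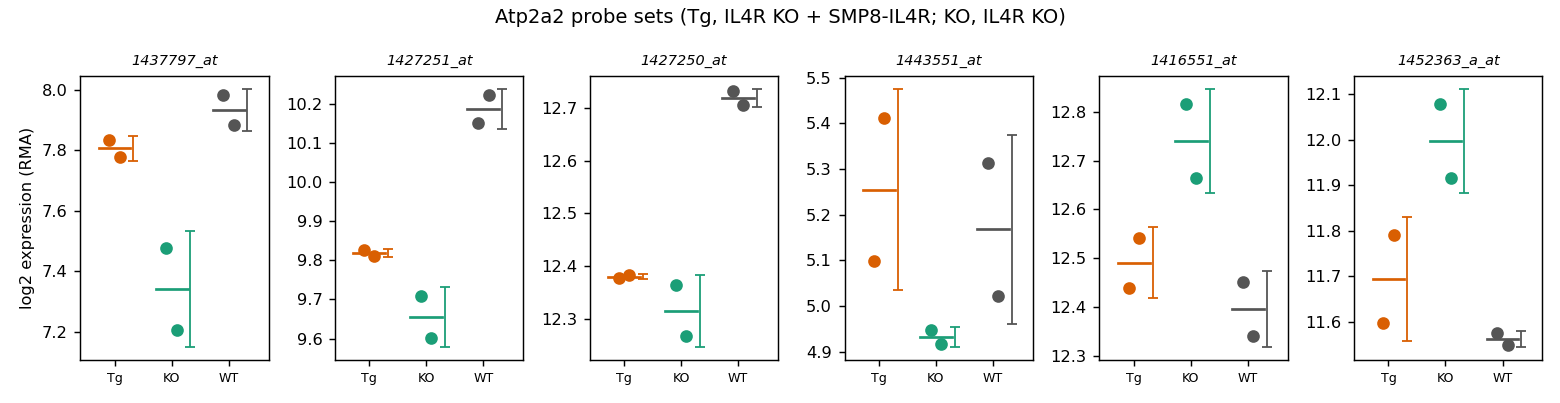
Log2 expression (y axis) of the Atp2a2 probe sets by group, with IL4R KO + SMP8-IL4R (Tg) on the left, then IL4R KO (KO) and WT, and 1 point per pool. IL4R KO lies above WT in the 2 panels on the right and below it in the 4 panels on the left.

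TRP channels are cation channels gated by receptors, temperature, stretch or chemicals. Of 19 such genes, counting the TRPC, TRPV, TRPM and TRPA channels, 9 were tested and none passed. Trpc2, a pheromone-sensing channel of the mouse vomeronasal organ, was at 7.72 and 7.70 in IL4R KO + SMP8-IL4R, 7.16 and 7.46 in IL4R KO, and 7.38 and 7.34 in WT. IL4R KO + SMP8-IL4R was above the other 4 arrays, and its difference from IL4R KO was 0.40 (limma adjusted p = 0.278), or 0.55 without IL4R KO replicate 2 (limma adjusted p = 0.0330). The platform lists Trpc2 jointly with other genes on 2 further probe sets, which were not used. Trpc1, a receptor-operated channel, was at 8.49 and 8.66 in IL4R KO + SMP8-IL4R, 8.42 and 8.40 in IL4R KO, and 8.30 in both WT pools. It did not overlap between any groups, and differed by 0.28 between IL4R KO + SMP8-IL4R and WT (limma adjusted p = 0.140). Trpc6, a receptor-operated channel of smooth muscle, differed by at most 0.24. Trpv2, Trpv6, Trpm4, Trpm6 and Trpm7 differed by at most 0.15, and Trpm2, an oxidant-sensitive channel, by at most 0.23.

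Partners of these channels outside the symbol rule were read for comparison, 34 of 47 listed genes being tested. The list was chosen with earlier results of these data known, so its counts are a description and no test. In IL4R KO against WT, 5 were higher (background 1.92%) and 4 lower (background 2.77%). Among the higher ones, Sln was already counted above as a cardiac marker. The higher ones included Sln and Pln, inhibitors of the Atp2a pumps (0.83, limma adjusted p = 0.0204, and 0.43, limma adjusted p = 0.0494), Hrc, a calcium-binding protein of the store (0.51, limma adjusted p = 0.0308), and Abcc9, the regulatory partner of Kcnj8 (0.36, limma adjusted p = 0.0423). The lower ones included Lrrc26, an auxiliary subunit of the Kcnma1 channel (-0.42, limma adjusted p = 0.0483), and Mrvi1, which couples cyclic GMP signals to IP3 receptors (-0.42, limma adjusted p = 0.0358). P2rx1, an ATP-gated cation channel of smooth muscle, was lower by 0.82 in IL4R KO than in WT (limma adjusted p = 0.0109). P2rx1 was higher by 1.26 in IL4R KO + SMP8-IL4R than in IL4R KO (limma adjusted p = 0.0317). It was the only one of the 34 to pass there, where 0.101% of all tested genes did. With the list chosen after earlier results, this pass is no independent support. Set against WT, IL4R KO + SMP8-IL4R had Abcc9 and the calcium-regulated factor Nfatc1 higher by 0.39 and 0.42, and Lrrc26 and the calcium channel adaptor Stac2 lower by 0.75 and 0.73 (limma adjusted p-values 0.0443, 0.0350, 0.00978 and 0.0160). Stac2 was above the overall median in the WT arrays alone. The textbook set for smooth muscle tone was likewise chosen with earlier results of these data known, so its counts are a description and no test. It also holds genes named here for other tissues, such as Kcne3 and Casq1. Of its 30 tested members, 3 were higher (background 1.92%) and 1 lower (background 2.77%) in IL4R KO than in WT. These are Ryr2, Stim1, Casq2 and Kcnj15, as already counted. Between IL4R KO + SMP8-IL4R and IL4R KO, 0 passed.

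Among the 85 untested members, 3 differed by over 0.5 between IL4R KO and WT. The share of all untested genes past this difference was not counted, so the count says nothing of the members as a set. Kcne3, the epithelial subunit that keeps Kcnq1 open, was at 5.40 and 5.49 in IL4R KO + SMP8-IL4R, 5.40 and 5.84 in IL4R KO, and 6.75 and 6.81 in WT. All receptor-deleted arrays were below WT. With every gene tested, it was lower by 1.16 in IL4R KO than in WT (limma adjusted p = 0.0156) and by 1.33 in IL4R KO + SMP8-IL4R than in WT (limma adjusted p = 0.0104). It lay below the median of all values in every array, where RMA compresses differences. Kcna5, a delayed rectifier of heart and pulmonary artery, was at 4.96 and 5.31 in IL4R KO + SMP8-IL4R, 5.64 and 5.93 in IL4R KO, and 5.13 and 5.18 in WT. IL4R KO was highest, and with every gene tested its difference from WT was 0.63 (limma adjusted p = 0.0848). Kcnd2, a transient outward channel, differed by 0.53 in the same comparison (limma adjusted p = 0.0569).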

How the data were processed

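RNA of 6 whole lung pools was measured on Affymetrix mouse 430 2.0 arrays. The log2 values deposited by the authors were made with RMA, per the submitters' processing notes, and the RMA version is not given in the sources used here. RMA corrects background, gives all arrays the same distribution and combines the probes of a probe set, which compresses dim values. Of 45101 probe sets, 64 controls were left out, and the platform annotation gave 1 gene to 34945, several to 932 and none to 9160, the last being unnamed here. Entrez identifiers linked all 305 member probe sets to current symbols (reference table GRCm38.p6). Each gene took its probe set with the highest mean.

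Group means were fitted over all 6 arrays with limma 3.58.1 in R 4.3.3, without an intensity trend, which left 3 residual and 2.86 prior degrees of freedom. The comparisons were IL4R KO + SMP8-IL4R minus IL4R KO, IL4R KO + SMP8-IL4R minus WT, and IL4R KO minus WT. All members that passed are named. Further names were drawn from the largest differences, the lowest p-values and the textbook members of smooth muscle tone, but these are not reported in full. Cacna1s and Kcnj11, for example, were lower than WT in IL4R KO + SMP8-IL4R, by 0.40 and 0.31, and did not pass. Kcns3, Kcna7 and textbook members such as Ryr1 and Trpv4 were likewise left out. Named members outside these sets were chosen after their values were seen. The members and lists were chosen with earlier results of these data known. The code was tested on simulated data. Arrays have no depth, and their number limits the precision. Alternatives covered the filter, the choice of probe set, the trend, centring, the groups fitted, the liver-bearing arrays, a replicate block and leaving out each array.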

Additional observations from a re-analysis of the deposited data

How the results depend on the processing

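Kcnj15 passed against WT in every alternative run for both receptor-deleted groups, between -1.38 and -1.11 in IL4R KO and between -1.34 and -1.20 in IL4R KO + SMP8-IL4R. No value of a called member changed sign. In IL4R KO + SMP8-IL4R against IL4R KO, the count of members passing was 0 in every alternative but 1, and ranged from 0 to 3 when arrays were left out in turn. The 3 were Kcnmb1, Kcnq5 and Trpc2, without IL4R KO replicate 2. The median difference of -0.069 became -0.091 with the median over probe sets and -0.038 without both arrays holding liver transcripts, and -0.077 to -0.038 with 1 array left out. In IL4R KO + SMP8-IL4R against WT, the count of 2 became 4 with a robust intensity trend, 9 with only the 2 groups compared, and 1 to 9 with 1 array left out, 9 being the value without either IL4R KO replicate. The median of 0.020 became -0.056 without a filter and -0.004 to 0.034 with 1 array left out. In IL4R KO against WT, the count of 7 became 4 with the median over probe sets, 4 with only the 2 groups compared, and 1 to 14 with 1 array left out. It was 1 without WT replicate 1, 2 without WT replicate 2, and 14 without IL4R KO replicate 2. The median of 0.079 became -0.003 without a filter and 0.032 to 0.079 with 1 array left out. Over all genes, the passing counts of 12, 337 and 557 in these 3 comparisons ranged from 0 to 177, 77 to 910 and 110 to 1519. For single members, 3 results became weaker in IL4R KO + SMP8-IL4R against WT and 32 in IL4R KO against WT, while 3, 26 and 10 became stronger in the 3 comparisons. Where 1 array was left out, the lone remaining array was assumed to vary like the other groups. Where that array belonged to the group not compared, the fit was the same as with only the 2 groups compared. That fit therefore enters these tallies, and the numbers of settings given for single genes, more than once. The cause of these changes was not tested.

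The labels number the pools but do not say that a number marks a shared litter or day. Differences between pool 1 and pool 2 correlated across genes by 0.121 between IL4R KO + SMP8-IL4R and IL4R KO, by -0.087 between IL4R KO + SMP8-IL4R and WT, and by -0.509 between IL4R KO and WT. With a replicate block, 0, 2 and 6 members passed in the 3 comparisons, and 10, 276 and 482 genes. With the WT numbers crossed, an alternative chosen after seeing the data, 5 members and 390 genes passed in IL4R KO against WT. Signal near or below the median of all values limits Kcnip2, Kcne3 and the other dim members, since no detection calls were used.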
